A study of Homo sapiens with 9 samples.

Results

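Most of the genes described here carry glucose into the cell, break it down to pyruvate, turn pyruvate into lactate or carry lactate out. The set holds 33 genes, taken by symbol from the GENCODE entries of the deposited count table, and all 33 were found among its 112171 annotated features. By role they are 6 glucose transporters (SLC2A1, SLC2A3, SLC2A6, SLC2A8, SLC2A10 and SLC2A12), 5 enzymes of sugar phosphate entry (HK1, HK2, GPI, PGM1 and PGM2), 6 phosphofructokinases and their bifunctional regulators (PFKL, PFKM, PFKP, PFKFB2, PFKFB3 and PFKFB4), 4 enzymes of the aldolase to triose steps (ALDOA, ALDOC, TPI1 and GAPDH), 7 enzymes of lower glycolysis (PGK1, PGAM1, BPGM, ENO1, ENO2, ENO3 and PKM), 2 lactate dehydrogenases (LDHA and LDHB) and 3 members of the monocarboxylate transporter family (SLC16A1, SLC16A3 and SLC16A14). Of these, 32 had enough counts to be tested. SLC2A10, a glucose transporter, did not, with 6 to 16 counts in each library.

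Total RNA came from PANC-1, an established line of human pancreatic carcinoma cells, after 12 h under hypoxia. The medium held rakicidin A at 42 nM, a bacterial cyclic lipodepsipeptide, BE-43547A1 at 41 nM, or 0.04% of the solvent DMSO, with 3 libraries in each group. The labels state neither the oxygen level nor how much DMSO accompanied the compounds, so a match of the solvent cannot be checked. All 9 libraries are hypoxic and none came from normal oxygen, so each difference below lies within hypoxia. Only 1 cell line and 1 time were sampled, and nothing in the labels names the replicates as separate cultures. The p-values below therefore rest on library-to-library spread that could be purely technical. In bulk RNA of this kind, fewer cells that express a gene and less of its RNA per cell cannot be told apart.

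Glycolysis splits glucose into pyruvate with a small yield of ATP that needs no oxygen, and lactate dehydrogenase then recycles the cofactor that keeps it running. Many of its genes are textbook targets of the hypoxia-inducible factor HIF, which binds the core letters ACGTG or GCGTG in promoters and enhancers, and pancreatic carcinomas are known for high glucose uptake and lactate output. Most steps are shared among isozymes from separate genes, so a step can keep its enzyme while the isozyme mix shifts.

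The promoters of the 5 genes that moved furthest, and of SLC2A1, the main glucose carrier, are shown first, as RefSeq gives them on GRCh38.p14 in the direction of the gene, each from 250 bases before to 50 bases after an annotated start. Capitals mark the HIF core letters ACGTG or GCGTG on either strand, so that a core on the other strand reads CACGT or CACGC. SLC2A1, HK2, PFKFB3 and BPGM are genes that were higher with both compounds, and ALDOC and SLC16A14 are genes that were lower with both.
HK2, upstream start, chr2:74833877-74834176, plus strand: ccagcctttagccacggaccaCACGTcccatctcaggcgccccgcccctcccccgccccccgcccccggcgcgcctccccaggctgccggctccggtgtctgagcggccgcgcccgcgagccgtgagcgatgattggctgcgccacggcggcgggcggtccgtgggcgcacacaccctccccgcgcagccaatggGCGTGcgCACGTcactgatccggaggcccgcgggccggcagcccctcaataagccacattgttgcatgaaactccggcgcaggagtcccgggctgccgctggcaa
HK2, downstream start, chr2:74834920-74835219, plus strand: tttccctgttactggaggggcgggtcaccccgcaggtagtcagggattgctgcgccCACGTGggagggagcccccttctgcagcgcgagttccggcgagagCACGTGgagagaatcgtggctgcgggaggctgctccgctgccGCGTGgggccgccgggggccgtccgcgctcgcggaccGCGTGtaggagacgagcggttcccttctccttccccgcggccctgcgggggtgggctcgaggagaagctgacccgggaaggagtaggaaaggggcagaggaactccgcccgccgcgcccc
PFKFB3, downstream start, chr10:6202682-6202981, plus strand: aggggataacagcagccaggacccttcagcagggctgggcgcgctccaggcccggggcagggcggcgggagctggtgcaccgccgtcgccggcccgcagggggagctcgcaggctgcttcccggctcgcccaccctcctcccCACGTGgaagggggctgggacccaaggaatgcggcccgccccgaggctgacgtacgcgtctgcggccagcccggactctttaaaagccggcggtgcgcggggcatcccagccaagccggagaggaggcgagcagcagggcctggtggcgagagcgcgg
BPGM, chr7:134646603-134646902, plus strand: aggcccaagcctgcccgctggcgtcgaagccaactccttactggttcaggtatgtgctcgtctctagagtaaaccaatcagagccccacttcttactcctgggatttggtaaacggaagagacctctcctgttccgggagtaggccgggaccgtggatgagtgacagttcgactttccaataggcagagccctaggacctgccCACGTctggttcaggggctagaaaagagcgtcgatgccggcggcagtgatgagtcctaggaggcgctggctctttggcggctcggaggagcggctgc
SLC2A1, chr1:42958819-42959118, minus strand: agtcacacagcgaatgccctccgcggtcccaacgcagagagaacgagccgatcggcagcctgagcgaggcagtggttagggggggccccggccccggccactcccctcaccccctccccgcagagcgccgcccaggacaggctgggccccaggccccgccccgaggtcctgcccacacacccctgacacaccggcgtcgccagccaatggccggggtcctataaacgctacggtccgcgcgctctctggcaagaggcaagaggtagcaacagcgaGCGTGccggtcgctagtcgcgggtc
ALDOC, chr17:28576846-28577145, minus strand: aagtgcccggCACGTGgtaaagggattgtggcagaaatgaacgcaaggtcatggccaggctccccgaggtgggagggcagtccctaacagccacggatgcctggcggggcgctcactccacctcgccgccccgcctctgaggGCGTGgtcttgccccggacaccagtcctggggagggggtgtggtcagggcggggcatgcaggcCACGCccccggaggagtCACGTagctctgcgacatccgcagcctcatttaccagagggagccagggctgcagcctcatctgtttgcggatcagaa
SLC16A14, chr2:230068875-230069174, minus strand: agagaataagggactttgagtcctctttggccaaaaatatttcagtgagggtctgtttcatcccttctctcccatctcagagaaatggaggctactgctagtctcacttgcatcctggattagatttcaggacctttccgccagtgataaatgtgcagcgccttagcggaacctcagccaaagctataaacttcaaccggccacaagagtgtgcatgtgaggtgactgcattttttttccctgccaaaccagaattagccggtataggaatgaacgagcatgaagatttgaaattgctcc

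The downstream HK2 window holds the palindrome CACGTG at 2 places, and the PFKFB3 and ALDOC windows shown hold it once each. The upstream PFKFB3 window is not shown and holds 1 GCGTG core, on the other strand, and no CACGTG. This palindrome is the E-box bound by MYC and its relatives, and it contains ACGTG on both strands. BPGM has 1 core, 47 to 43 bases before its start, and SLC2A1 has 1, 26 to 30 bases after it. No core lies in the SLC16A14 window, which says only that these letters are not in these bases. RefSeq gave 58 such windows for 30 of the 33 genes (19 genes with 1 window), and none was at hand for SLC2A3, PFKFB2 or SLC16A1. Either core was present in 36 of the 58 windows (62.1%), and in 48.4% of all 35116 windows of the same length. ACGTG alone was in 36.2% of the members' windows and 21.4% of all, GCGTG alone in 39.7% and 36.5%, CACGTG in 12.1% and 7.26%, and TGATGNA, letters of the composite site of the stress factor ATF4, in 8.62% and 9.99%, each on both strands. A core stood in a window of all 7 genes that were higher with both compounds and had a window, and in 9 of the 12 that were lower with both. Genes with several windows have more chances of a match, and among genes with 1 window the counts were 4 of 4 and 6 of 9. The core letters were thus present in promoters of genes that went in opposite directions, as in HK2 and ALDOC.

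Levels are given as CPM, the counts relative to a fixed library total, scaled between libraries by the TMM method of edgeR, and differences as log2 fold changes with their standard error (SE) from edgeR's quasi-likelihood test. A gene passed at an adjusted p below 0.05 over all 22353 features tested. The libraries held 26203326 to 45048999 counts on features, fewest in a rakicidin A library and most in a BE-43547A1 library. The 7 ductal and epithelial markers, keratins KRT7, KRT8, KRT18 and KRT19 with EPCAM, CDH1 and SOX9, summed to 2513 to 3734 CPM. The sum was 2931 to 3108 in DMSO, 2513 to 2629 with rakicidin A and 3470 to 3734 with BE-43547A1. Of the 7, 1 was higher and 4 were lower with rakicidin A, and 4 were higher and 1 lower with BE-43547A1. Markers of acinar and endocrine pancreas were near 0 (at most 0.129 CPM summed over 8 genes), 5 leukocyte markers summed to 1.53 to 1.85 CPM in DMSO, 1.66 to 2.06 with rakicidin A and 2.77 to 3.46 with BE-43547A1, and 5 stromal and endothelial markers to 6.60 to 10.7, 4.003 to 5.46 and 4.68 to 6.75. INS of endocrine cells and CD3E of T cells had no count in any library, and most of the leukocyte and stromal sums were ITGAM and COL1A1. The part of these markers in the results was not tested. DMSO replicate 3 stood apart from its group: the chi-square of its counts against the other DMSO libraries, over its degrees of freedom, was 18.1 and 19.96, against 3.07 to 9.40 for all other pairs within a group. It was over 1.2 times the mean of the other DMSO libraries in 6 of the 32 tested genes (HK1, HK2, GPI, ALDOA, ENO2 and LDHA), by at most 1.31 times, and calls that change without it are given beside the gene. Scaling by total counts alone would lower the median log2 fold change of all features to -0.38 for rakicidin A and -0.24 for BE-43547A1 against DMSO, from -0.02 and -0.00, so small rises depend on the scaling.

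**Figure D1:**
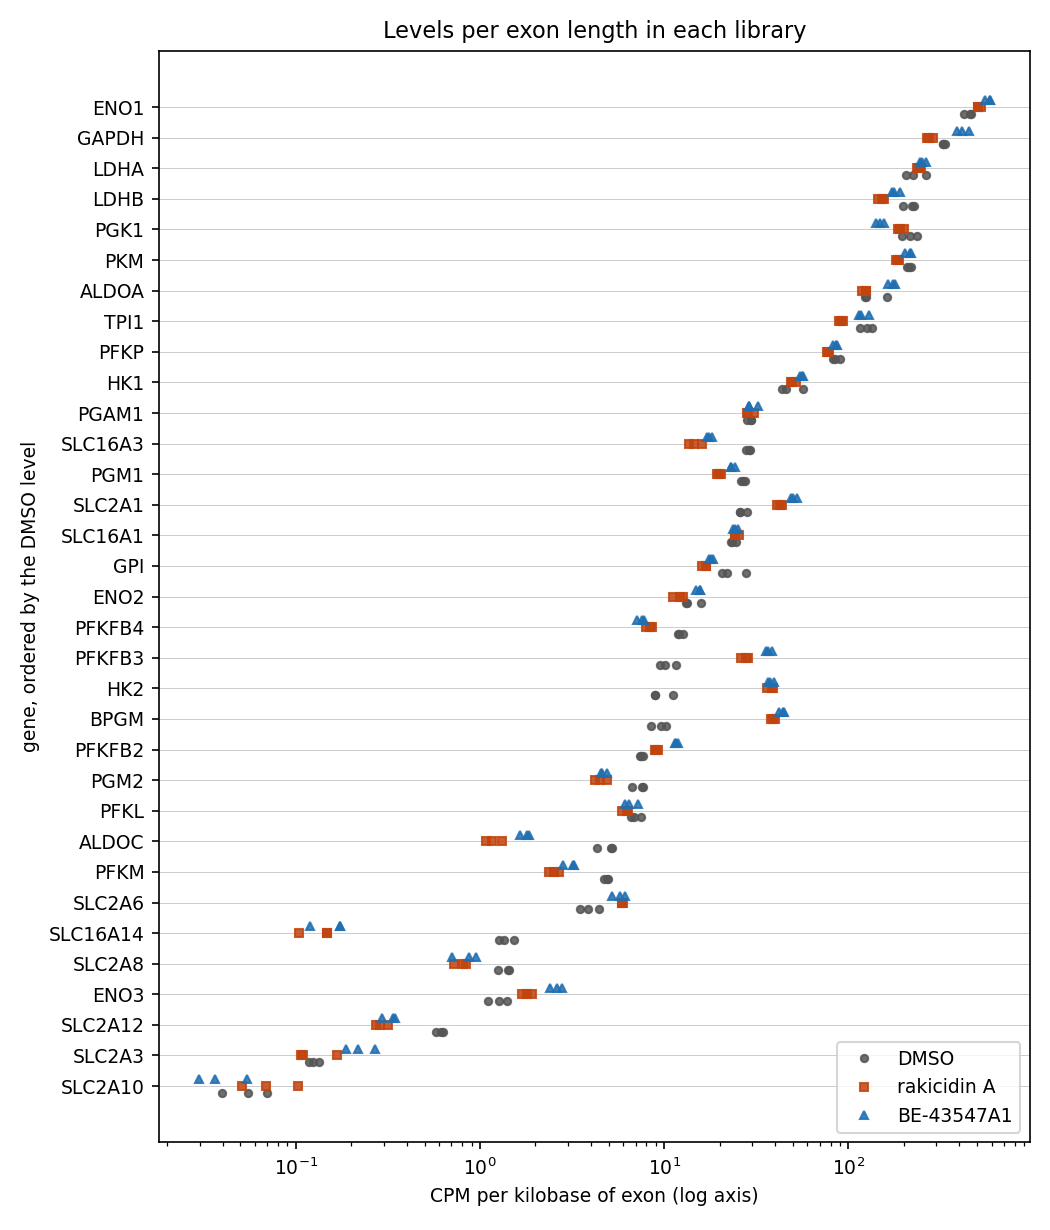
Level of each of the 33 genes in each library, as CPM per kb of exon on a log axis, with the genes on the vertical axis and 1 symbol per library by group. ENO1 has the highest level in DMSO (449 CPM per kb) and SLC2A10 the lowest (0.0548 CPM per kb).

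Per length, enolase ENO1 was the most abundant of these transcripts in DMSO, at 449 ± 18.8 CPM per kb of exon (SD, n = 3), followed by GAPDH at 331 ± 4.58 and LDHA at 231 ± 29.1. LDHB (216 ± 15.3), PGK1 (215 ± 19.9) and PKM (214 ± 5.41) came next and, on these lengths, did not differ from each other beyond their spread. These enzymes make up the second, energy-yielding stretch of the pathway and its lactate branch. Each length is the union of all annotated exons (8.57 kb for PKM, 2.98 kb for LDHB), an uncertainty that the spread does not cover. Such close ranks thus depend on the annotation, and by CPM alone PKM (1831) lay well above LDHB (643). At the other end SLC2A3, the neuronal-type glucose transporter GLUT3, lay at 0.126 CPM per kb, so SLC2A1 (26.7 CPM per kb) was by far the more abundant of the pair. HK1 (48.6 CPM per kb) stood above HK2 (9.65 CPM per kb) in DMSO. With rakicidin A HK2 reached 37.9 CPM per kb beside 50.02 for HK1, and with BE-43547A1 37.9 beside 55.7. Together the 33 genes took up 1.32 ± 0.0234% of the counts on features in DMSO, 1.00 ± 0.0160% with rakicidin A and 1.23 ± 0.0443% with BE-43547A1 (SD, n = 3), with no overlap between any of the 3 groups. These shares are of total counts, without the TMM scaling factors. Those factors differed between the groups (1.14 to 1.15 in DMSO, 0.890 to 0.898 with rakicidin A, 0.963 to 0.989 with BE-43547A1). The order of the groups therefore depends on the scaling.

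With rakicidin A 8 of the 32 tested genes were higher than in DMSO, 18 were lower and 6 did not pass. The 26 that passed are 81.25% of those tested, where 64.7% of all features passed (31.9% higher and 32.7% lower), so a call by itself says little about a member. With BE-43547A1 12 were higher, 12 were lower and 8 did not pass, and the 75% that passed stand beside 70.4% of all features (35.3% higher and 35.1% lower). The libraries of the groups did not overlap in 8 higher and 17 lower genes with rakicidin A (33.3% and 34.2% of all features) and in 11 higher and 12 lower genes with BE-43547A1 (35.7% and 35.9%). In each comparison 6 genes passed with a log2 fold change of at least 1 in size (18.75%), and of all features 27.8% did so with rakicidin A and 31.7% with BE-43547A1. The median log2 fold change of the members was -0.17 with rakicidin A and 0.02 with BE-43547A1, and that of all features was -0.02 and -0.00. With total counts alone the members split into 5 higher and 24 lower with rakicidin A and 9 higher and 18 lower with BE-43547A1, and all features into 4477 higher and 11392 lower and 5951 higher and 10450 lower, in place of 7141 and 7314 and 7898 and 7840 with TMM. The compounds share the DMSO libraries, so their values are given side by side. The genes higher with both were SLC2A1, SLC2A6, HK2, PFKFB2, PFKFB3, BPGM, ENO1 and ENO3, and the 12 lower with both were SLC2A8, SLC2A12, GPI, PGM1, PGM2, PFKM, PFKFB4, ALDOC, PGK1, LDHB, SLC16A3 and SLC16A14.

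**Figure D2:**
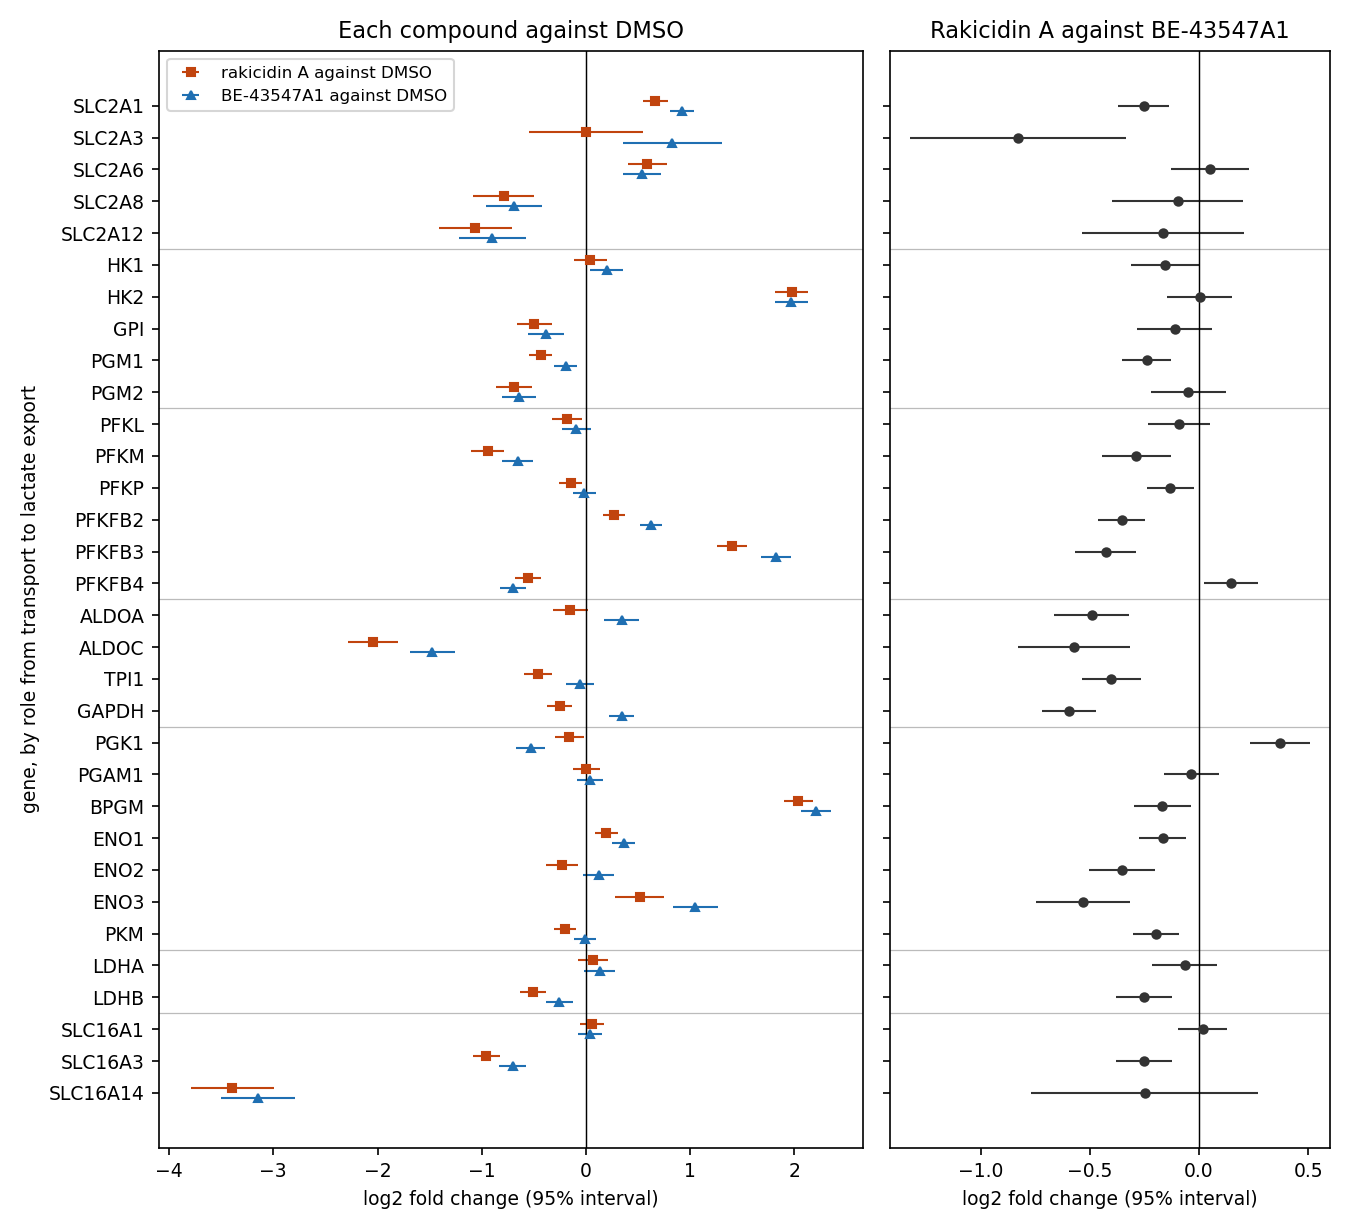
Log2 fold change (horizontal axis) with its 95% interval for the 32 tested genes, ordered by role, for each compound against DMSO on the left and rakicidin A against BE-43547A1 on the right. BPGM (2.04 and 2.21) and HK2 (1.97 and 1.97) lie furthest to the right on the left panel and SLC16A14 (-3.39 and -3.14) furthest to the left.

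Among the glucose transporters SLC2A1 and SLC2A6 rose with both compounds and SLC2A8 and SLC2A12 fell with both. SLC2A1, which encodes GLUT1, the basal glucose carrier of most cells, was at 123, 122 and 133 CPM in the DMSO libraries, 205, 200 and 194 with rakicidin A and 248, 235 and 232 with BE-43547A1. The groups did not overlap, and the BE-43547A1 libraries were the highest. Its log2 fold change was 0.67 ± 0.06 (SE, adjusted p = 4.82e-09) with rakicidin A and 0.92 ± 0.06 (adjusted p = 4.44e-11) with BE-43547A1. SLC2A6, a transporter of lysosomal membranes, went from 12.4 to 15.7 CPM in DMSO to 20.8 to 21.1 with rakicidin A and 18.5 to 21.7 with BE-43547A1, log2 fold changes of 0.59 and 0.54. SLC2A8, an intracellular transporter, fell by 0.79 and 0.69 on the log2 scale, from 4.89 to 5.65 CPM to 2.85 to 3.31 and 2.77 to 3.73. SLC2A12, a transporter of insulin-sensitive tissues, was at 2.81, 2.59 and 2.73 CPM in DMSO, 1.27, 1.21 and 1.42 with rakicidin A and 1.51, 1.31 and 1.54 with BE-43547A1. Every treated library lay below every DMSO library, with log2 fold changes of -1.06 ± 0.17 (adjusted p = 1.81e-05) and -0.90 ± 0.15 (adjusted p = 4.00e-05). SLC2A3 was near the limit of detection, at 0.726 to 0.825 CPM in DMSO, 0.655 to 1.03 with rakicidin A and 1.15 to 1.66 with BE-43547A1. Only the BE-43547A1 libraries stood clear of DMSO (0.83 ± 0.23, adjusted p = 0.00313), while for rakicidin A the interval ran from -0.55 to 0.55.

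The entry enzymes split between HK2 and the rest. HK2, the inducible hexokinase that traps glucose as its phosphate, was at 54.3, 53.9 and 67.4 CPM in DMSO, 220, 233 and 237 with rakicidin A and 221, 228 and 240 with BE-43547A1. Even the highest DMSO library, replicate 3, held less than a treated library by a wide margin. HK2 rose 3.93-fold (log2 fold change 1.97 ± 0.08, adjusted p = 5.09e-14) with rakicidin A and 3.92-fold (1.97 ± 0.08, adjusted p = 5.47e-14) with BE-43547A1. HK1, the constitutive hexokinase, was at 289, 273 and 355 CPM in DMSO, 307 to 327 with rakicidin A and 342 to 358 with BE-43547A1. DMSO replicate 3 overlapped the treated libraries. The difference was 0.04 (95% interval -0.12 to 0.20) with rakicidin A and 0.20 ± 0.07 (adjusted p = 0.0246) with BE-43547A1. Without DMSO replicate 3 HK1 also passed with rakicidin A (0.16, adjusted p = 0.00814), and without DMSO replicate 1 or 2 it did not pass with BE-43547A1 (adjusted p = 0.102 and 0.171), nor without BE-43547A1 replicate 3 (adjusted p = 0.0547). HK1 turned with total counts alone to a fall that passed with rakicidin A (-0.32, adjusted p = 0.00112) and to -0.04, which did not pass, with BE-43547A1.

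GPI, the isomerase that follows hexokinase, PGM1, the phosphoglucomutase that links glycolysis to glycogen, and the related PGM2 fell with both compounds. GPI had 234, 219 and 296 CPM in DMSO, 171 to 181 with rakicidin A and 187 to 197 with BE-43547A1, log2 fold changes of -0.49 and -0.38. PGM1 went from 110 to 116 CPM to 81.4 to 85.8 and 96.6 to 102 (-0.43 and -0.19), and PGM2 from 24.9 to 28.3 CPM to 15.6 to 18.2 and 16.8 to 18.2 (-0.69 and -0.64). In these 3 genes no treated library reached the lowest DMSO library.

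At the phosphofructokinase step the 3 subunit genes were lower or did not pass, and the 3 PFKFB genes went in different directions. PFKM, the muscle-type subunit, was at 36.0, 36.2 and 34.5 CPM in DMSO, 18.5, 19.6 and 17.4 with rakicidin A and 23.7, 23.4 and 20.6 with BE-43547A1. All 6 treated libraries lay below DMSO, and those with rakicidin A below those with BE-43547A1. The log2 fold changes were -0.94 ± 0.07 (adjusted p = 2.19e-09) and -0.65 ± 0.07 (adjusted p = 1.77e-07). PFKP, the platelet-type subunit and the most abundant of the 3 (85.8 CPM per kb in DMSO), had 401 to 433 CPM in DMSO, 371 to 379 with rakicidin A and 399 to 417 with BE-43547A1. PFKL, the liver-type subunit, had 59.3 to 66.6 CPM in DMSO, 52.8 to 56.5 with rakicidin A and 54.5 to 64.0 with BE-43547A1. Both fell slightly with rakicidin A (-0.15, adjusted p = 0.0186, and -0.18, adjusted p = 0.0255) and did not pass with BE-43547A1 (-0.02 and -0.09), although with total counts alone both passed there as falls (-0.25, adjusted p = 0.000142, and -0.33, adjusted p = 0.000354). Each of these calls was lost without DMSO replicate 1 or without any 1 of the rakicidin A libraries, with an adjusted p of at least 0.0606 for PFKP and 0.0558 for PFKL without a rakicidin A library, and of 0.0892 and 0.130 without DMSO replicate 1.

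The PFKFB enzymes make and break the sugar bisphosphate that activates phosphofructokinase, and PFKFB3 is the form with the strongest bias toward making it. PFKFB3 was at 61.4, 58.3 and 71.2 CPM in DMSO, 169, 174 and 160 with rakicidin A and 224, 234 and 219 with BE-43547A1. The groups formed 3 separate steps with DMSO at the bottom. Its log2 fold change was 1.40 ± 0.07 (2.63-fold, adjusted p = 2.16e-12) with rakicidin A and 1.83 ± 0.07 (3.54-fold, adjusted p = 4.83e-14) with BE-43547A1. PFKFB2, the heart-type form, rose less, from 75.6 to 78.5 CPM to 91.0 to 93.8 (0.27) and 116 to 121 (0.62), and with total counts alone the rise with rakicidin A turned to -0.09. PFKFB4 fell from 72.8 to 77.4 CPM to 48.5 to 52.5 (-0.55, adjusted p = 1.44e-07) and 43.6 to 47.6 (-0.70, adjusted p = 4.39e-09).

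**Figure D3:**
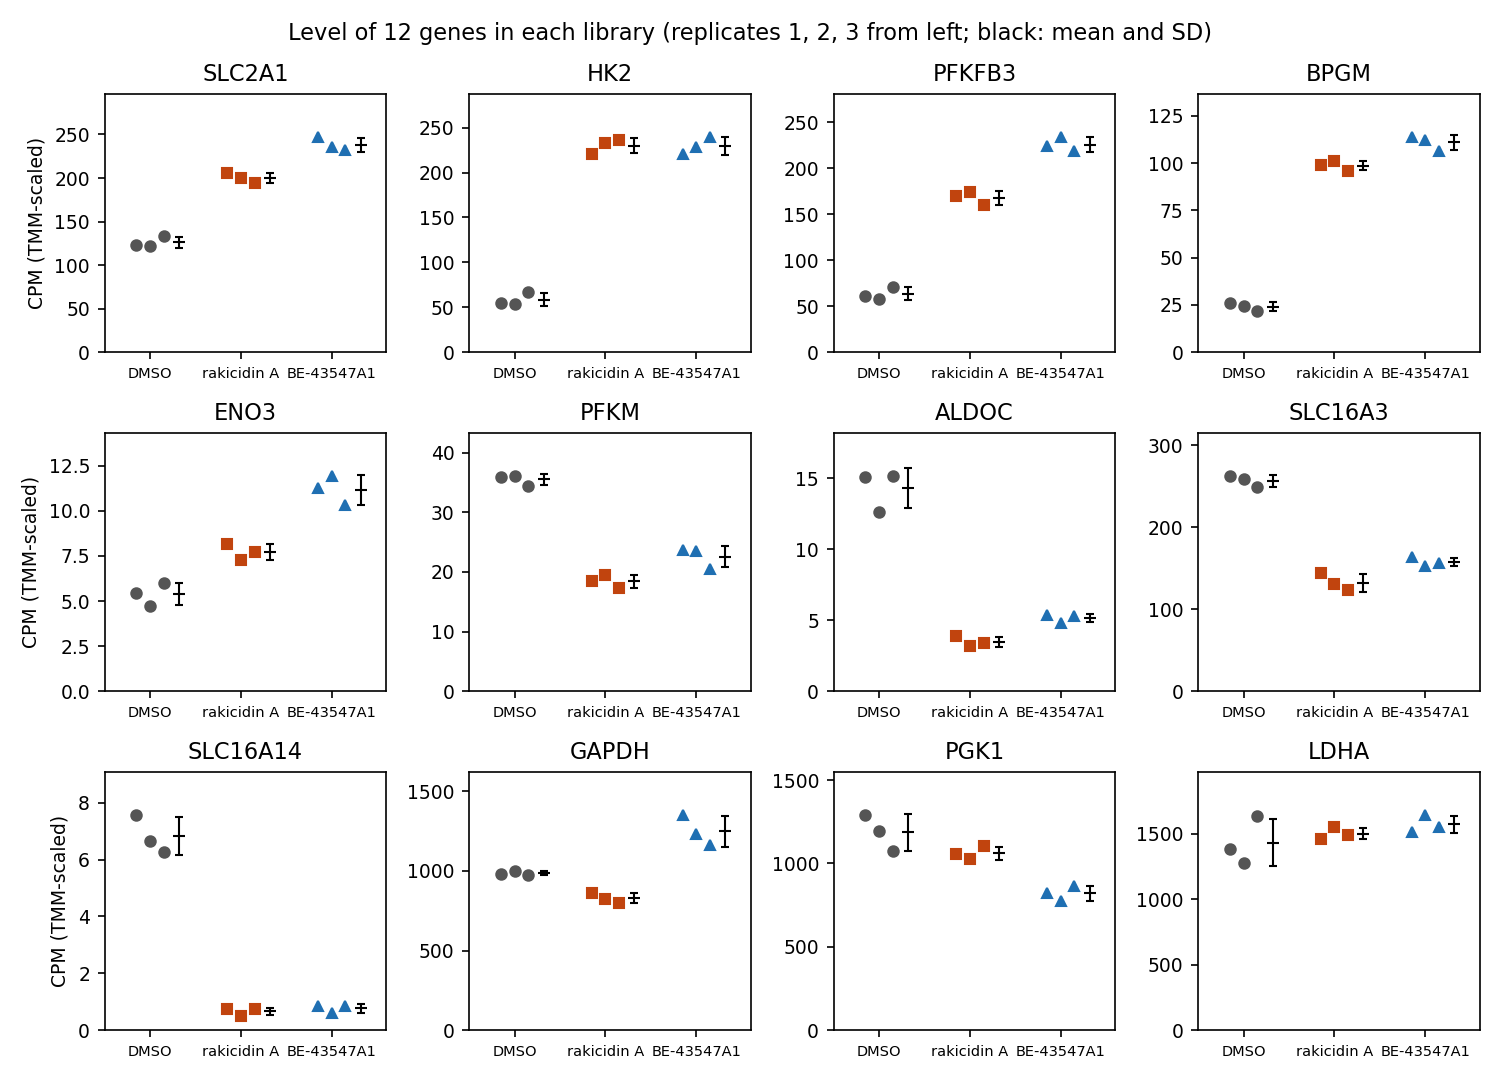
CPM in each library (symbols, replicates 1, 2 and 3 from left to right) with mean and SD in black, on axes that start at 0, for 12 of the genes. HK2, PFKFB3 and BPGM are higher in every treated library than in DMSO, with fitted rises of 2.63-fold to 4.61-fold. ALDOC and SLC16A14 are lower, at a fitted 0.0952 to 0.360 of the DMSO level, while LDHA overlaps between the groups.

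In the steps from aldolase to GAPDH no gene rose with rakicidin A. ALDOC, the aldolase known from brain, was at 15.1, 12.7 and 15.2 CPM in DMSO, 3.86, 3.17 and 3.39 with rakicidin A and 5.38, 4.82 and 5.28 with BE-43547A1. Both treated groups lay far below DMSO and did not overlap each other. Its log2 fold changes were -2.05 ± 0.11 (0.242 of the DMSO level, adjusted p = 1.42e-11) and -1.47 ± 0.10 (0.360 of it, adjusted p = 3.64e-10). ALDOA, the main aldolase, had 487, 483 and 633 CPM in DMSO, 463 to 491 with rakicidin A and 644 to 705 with BE-43547A1. The BE-43547A1 libraries were above all DMSO libraries (0.34, adjusted p = 0.00103), although with total counts alone this call was lost (0.10, adjusted p = 0.269), and with rakicidin A the difference of -0.15 did not pass (adjusted p = 0.111). It did pass without DMSO replicate 1 or 2 (-0.21 and -0.22, adjusted p = 0.0334 and 0.0307), with no filter (-0.16, adjusted p = 0.0321) and with total counts alone (-0.51, adjusted p = 2.91e-05). TPI1, the triose phosphate isomerase, fell with rakicidin A, from 311 to 364 CPM to 239 to 252 (-0.46, adjusted p = 4.86e-06), and did not pass with BE-43547A1 at 307 to 350 CPM (-0.06). Without DMSO replicate 3 that difference passed as a fall (-0.13, adjusted p = 0.0469), as it did with total counts alone (-0.30, adjusted p = 0.000580). GAPDH, the dehydrogenase often used as a reference gene, was at 978, 1001 and 976 CPM in DMSO, 862, 821 and 799 with rakicidin A and 1353, 1232 and 1162 with BE-43547A1. It was the 1 member that passed in opposite directions, with log2 fold changes of -0.25 ± 0.06 (adjusted p = 0.000939) and 0.34 ± 0.06 (adjusted p = 3.97e-05). The fall with rakicidin A passed under all alternatives run, and the rise with BE-43547A1 was lost with total counts alone (0.11, adjusted p = 0.119).

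The largest rise of all 32 genes lay in BPGM, which is grouped here under lower glycolysis, while PGK1, PGAM1, ENO1 and PKM moved far less. BPGM, a mutase best known from red cells, where it makes the bisphosphoglycerate that loosens the grip of haemoglobin on oxygen, was at 26.1, 24.4 and 21.7 CPM in DMSO, 98.9, 101 and 96.0 with rakicidin A and 114, 112 and 106 with BE-43547A1. No library of one group reached another group. The rise was 4.10-fold (log2 fold change 2.04 ± 0.07, adjusted p = 6.31e-15) with rakicidin A and 4.61-fold (2.21 ± 0.07, adjusted p = 2.20e-15) with BE-43547A1. ENO3, the muscle enolase, was at 5.44, 4.74 and 5.996 CPM in DMSO, 8.19, 7.29 and 7.73 with rakicidin A and 11.3, 12.0 and 10.3 with BE-43547A1. Again the groups formed 3 steps, with log2 fold changes of 0.52 ± 0.11 (adjusted p = 0.000491, lost with total counts alone at 0.16, adjusted p = 0.218) and 1.05 ± 0.10 (2.07-fold, adjusted p = 4.75e-08). ENO1, the main enolase, rose from 2253 to 2431 CPM to 2678 to 2772 (0.20, adjusted p = 0.00253) and 2911 to 3107 (0.36, adjusted p = 4.63e-06), but with total counts alone the first of these turned to -0.16 (adjusted p = 0.00692).

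ENO2, the neuronal enolase, had 56.5, 56.7 and 68.0 CPM in DMSO, 48.0 to 54.0 with rakicidin A and 63.4 to 67.1 with BE-43547A1. It fell with rakicidin A (-0.23, adjusted p = 0.00876, lost without rakicidin A replicate 1 at -0.17, adjusted p = 0.0840) and did not pass with BE-43547A1 (0.12). Without DMSO replicate 3 the latter passed as a rise (0.21, adjusted p = 0.00306). PGK1, the X-linked kinase that yields the first ATP, was at 1293, 1192 and 1074 CPM in DMSO, 1055, 1028 and 1105 with rakicidin A and 822, 777 and 865 with BE-43547A1. The BE-43547A1 libraries lay below all others (-0.53 ± 0.06, adjusted p = 7.77e-07). With rakicidin A, PGK1 overlapped DMSO, and its small fall (-0.16, adjusted p = 0.0387) was lost when 1 library was left out, except for DMSO replicate 3, with adjusted p of up to 0.235, and with DESeq2 (adjusted p = 0.0655). PKM, the pyruvate kinase of most tissues, fell with rakicidin A from 1788 to 1880 CPM to 1560 to 1614 (-0.20, adjusted p = 0.00182) and stayed at 1741 to 1871 CPM with BE-43547A1 (-0.00, interval -0.11 to 0.10), although with total counts alone it passed there as a fall (-0.24, adjusted p = 0.000276). PGAM1, the mutase before enolase, had 72.2 to 76.4 CPM in DMSO, 72.7 to 79.1 with rakicidin A and 73.8 to 82.5 with BE-43547A1, and did not pass with either compound (intervals -0.12 to 0.13 and -0.08 to 0.17). With total counts alone PGAM1 turned to falls that passed (-0.35 and -0.20, adjusted p = 6.56e-05 and 0.00848).

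Of the lactate dehydrogenases LDHB fell and LDHA did not pass. LDHB, the heart-type subunit that favours pyruvate, was at 660, 677 and 591 CPM in DMSO, 467, 454 and 435 with rakicidin A and 518, 569 and 527 with BE-43547A1. Every treated library was below DMSO, with log2 fold changes of -0.51 ± 0.06 (adjusted p = 7.09e-07) and -0.26 ± 0.06 (adjusted p = 0.00105). LDHA, the subunit that favours lactate, was at 1385, 1280 and 1631 CPM in DMSO, 1460, 1549 and 1493 with rakicidin A and 1516, 1646 and 1550 with BE-43547A1. DMSO replicate 3 was above all 3 rakicidin A libraries and all but 1 BE-43547A1 library, and the differences of 0.07 (adjusted p = 0.416) and 0.13 (adjusted p = 0.0997) did not pass. Without that library both passed as rises, at 0.17 (adjusted p = 0.00675) and 0.23 (adjusted p = 0.000555), and with no filter the second passed (0.15, adjusted p = 0.0284). With total counts alone the first turned to a fall that passed (-0.29, adjusted p = 0.00118) and the second to -0.11, which did not pass.

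The monocarboxylate transporter family held the largest fall, in a member not known to carry lactate. SLC16A14, a monocarboxylate transporter family member with little known of its cargo, was at 7.58, 6.66 and 6.28 CPM in DMSO, 0.728, 0.512 and 0.730 with rakicidin A and 0.855, 0.593 and 0.863 with BE-43547A1. All 6 treated libraries were far below all DMSO libraries, at only 16 to 38 counts each, so the size of the fall is less certain than its direction. The log2 fold changes were -3.39 ± 0.19 (0.0952 of the DMSO level, adjusted p = 1.29e-11) and -3.14 ± 0.17 (0.113 of it, adjusted p = 7.66e-12). SLC16A3, which encodes MCT4, the lactate exporter of glycolytic cells, was at 263, 259 and 249 CPM in DMSO, 144, 130 and 123 with rakicidin A and 163, 153 and 157 with BE-43547A1. Here too the 3 groups did not overlap, with rakicidin A lowest. The log2 fold changes were -0.96 ± 0.06 (0.516 of the DMSO level, adjusted p = 1.00e-10) and -0.70 ± 0.06 (0.614 of it, adjusted p = 6.36e-09). SLC16A1, which encodes MCT1, a carrier that works in both directions, lay at 122 to 131 CPM in DMSO, 128 to 135 with rakicidin A and 125 to 134 with BE-43547A1, with intervals of -0.06 to 0.17 and -0.07 to 0.15 that exclude a change of the size seen in SLC16A3. SLC16A1 turned with total counts alone to falls that passed (-0.30 and -0.20, adjusted p = 6.88e-05 and 0.00283).

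The compounds were then compared directly, at 42 nM and 41 nM, doses that differ slightly. Of the 32 tested genes 1 was higher with rakicidin A than with BE-43547A1 (PGK1), 18 were lower and 13 did not pass. The 59.4% that passed stand beside 46.6% of all features, and by direction the 18 lower genes (56.25%) stand beside 22.5% of all features and the 1 higher gene (3.125%) beside 24.1%. The libraries did not overlap in 2 higher and 20 lower genes (29.2% and 28.3% of all features). The members' median was -0.18 and that of all features -0.02. No member that passed differed by a log2 value of 1 or more, where 9.69% of all features did. With total counts alone, 1 member was higher and 23 were lower, and 3923 features were higher and 6868 lower in place of 5387 and 5036.

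GAPDH had the firmest difference, 0.662 of the BE-43547A1 level with rakicidin A (log2 -0.59 ± 0.06, adjusted p = 1.84e-07), followed by PFKFB2 and PFKFB3 (-0.35 and -0.43, adjusted p = 1.64e-05 and 3.71e-05). ALDOA, ALDOC, TPI1 and ENO3 were lower with rakicidin A too, with log2 differences of -0.49, -0.57, -0.40 and -0.53. All 4 genes of the aldolase to triose steps and 5 of the 7 of lower glycolysis were lower with rakicidin A. PGK1 went the other way, at 1.29 times the BE-43547A1 level (0.37 ± 0.06, adjusted p = 0.000126). SLC2A3, at under 2 CPM in every library, had the largest difference in size (-0.83 ± 0.24, adjusted p = 0.00729), which was lost when the libraries were thinned to equal counts (-0.55, adjusted p = 0.0893).

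For HK2 the direct difference was 0.00 with a 95% interval of -0.15 to 0.15, which bounds a difference between the compounds to well under the rise that each gave over DMSO. BPGM was slightly lower with rakicidin A (-0.17, adjusted p = 0.0321), a call lost without any 1 of the rakicidin A libraries (adjusted p up to 0.146) or without BE-43547A1 replicate 1 or 2 (adjusted p = 0.0899 and 0.0960). That of ENO1 (-0.17, adjusted p = 0.0125) was lost without BE-43547A1 replicate 2 or rakicidin A replicate 2 or 3, and that of PFKP (-0.13, adjusted p = 0.0456) without any 1 library other than DMSO replicate 3 or BE-43547A1 replicate 1. PFKFB4 was the reverse, just outside the threshold (0.15, adjusted p = 0.0518) and past it in 7 alternatives, among them the fit without DMSO replicate 3 (adjusted p = 0.0205). SLC16A14 showed -0.25 with an interval of -0.77 to 0.27, too wide to tell a small difference from none. SLC2A6, SLC2A8, SLC2A12, HK1, GPI, PGM2, PFKL, PGAM1, LDHA and SLC16A1 did not pass either, with log2 differences of -0.17 to 0.05. Of these, HK1 passed as lower with rakicidin A without DMSO replicate 3 (-0.15, adjusted p = 0.00987), with the 6 libraries of the comparison (adjusted p = 0.00642), with no filter (adjusted p = 0.0240) and with total counts alone (-0.28, adjusted p = 0.00565). GPI passed with the 6 libraries (-0.12, adjusted p = 0.0339) and with total counts alone (-0.23, adjusted p = 0.0284). PFKL, PGAM1 and LDHA passed as lower with total counts alone (-0.21, -0.16 and -0.19, adjusted p = 0.0182, 0.0446 and 0.0352).

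Ratios between related genes within a library do not depend on the scaling between libraries, and they were taken from the counts of 10 pairs. With 3 libraries against 3 the exact permutation test cannot go below 0.1, and over the 30 tests the smallest adjusted value was 0.130. The ratio of HK2 to HK1 was 0.188, 0.197 and 0.190 in DMSO, 0.674, 0.758 and 0.764 with rakicidin A and 0.646, 0.648 and 0.670 with BE-43547A1, with no overlap (two-sided exact p = 0.1 for each compound). For PFKFB3 to PFKFB4 it was 0.793, 0.797 and 0.979 in DMSO, 3.30, 3.59 and 3.04 with rakicidin A and 4.70, 5.37 and 4.73 with BE-43547A1. PFKFB3 thus had fewer counts than PFKFB4 in each DMSO library and several times more in each treated one. SLC16A3 counts were 2.01, 2.11 and 2.00 times those of SLC16A1 in DMSO, 1.12, 0.962 and 0.953 with rakicidin A and 1.26, 1.14 and 1.25 with BE-43547A1. ALDOC to ALDOA fell from 0.0240 to 0.0310 in DMSO to 0.00646 to 0.00785 and 0.00706 to 0.00819. LDHA to LDHB was higher with both compounds, at 3.12 to 3.44 and 2.89 to 2.94 against 2.10, 1.89 and 2.76 in DMSO, where replicate 3 gave the highest value. PFKM to PFKL was lower, at 0.311 to 0.371 and 0.360 to 0.431 against 0.540 to 0.590, and ENO2 to ENO1 and PGM2 to PGM1 were lower without overlap too. The ratio of PFKP to PFKL overlapped in all 3 comparisons, and that of SLC2A1 to SLC2A3 overlapped between BE-43547A1 and DMSO.

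**Figure D4:**
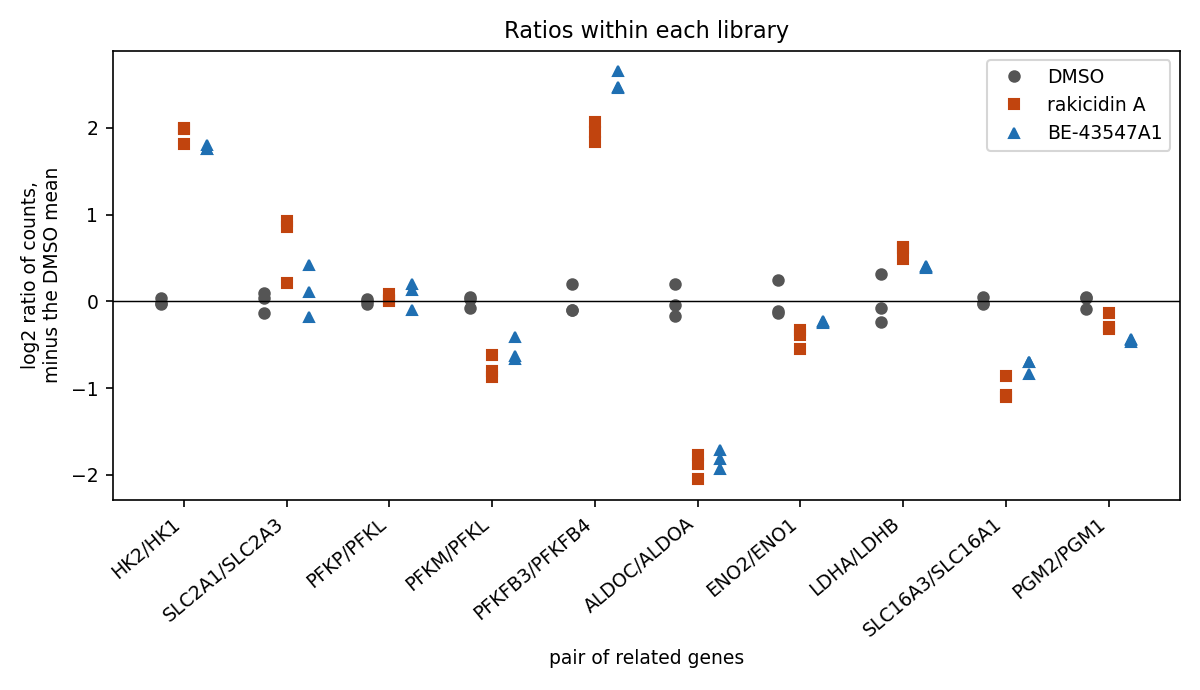
Log2 ratio of counts for 10 pairs of related genes in each library, minus the mean of the DMSO libraries (vertical axis), with 1 symbol per library. The ratios of HK2 to HK1 and PFKFB3 to PFKFB4 lie above DMSO and those of ALDOC to ALDOA and SLC16A3 to SLC16A1 below it in all 6 treated libraries.

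Reads from near copies limit some of these values. The deposited counts hold a summary entry for alignments that are not unique, apart from the features. It made up 20.8 to 22.4% of all counts in DMSO, 19.1 to 19.8% with rakicidin A and 20.8 to 22.2% with BE-43547A1. The genes that those reads came from are not given, nor are the counting settings. Pseudogenes of TPI1 held 47.9% as many counts as TPI1 itself over all libraries (43.7 to 52.6% by library), those of GAPDH 9.24%, of LDHA 9.17%, of SLC2A3 8.09%, of HK2 2.77% and of PGAM1 2.44%, so these levels are uncertain. TPI1P1, the main one, fell with rakicidin A as TPI1 did (-0.30, adjusted p = 0.000389) and like it did not pass with BE-43547A1, where the values were 0.11 (adjusted p = 0.123) for TPI1P1 and -0.06 for TPI1. HK2P1 rose with HK2, by 2.29 and 2.53. GAPDHP1 did not pass with rakicidin A (-0.15, adjusted p = 0.0795), where GAPDH fell. With BE-43547A1 it rose as GAPDH did (0.46, adjusted p = 9.74e-06). GAPDHP60, GAPDHP65 and GAPDHP70 likewise did not pass with rakicidin A and passed as rises with BE-43547A1. LDHAP4 showed 0.05 (adjusted p = 0.601) with rakicidin A and 0.37 (adjusted p = 0.000129) with BE-43547A1, where LDHA did not pass. SLC2A14, a near copy of SLC2A3, had at most 0.0247 CPM. The strand setting is not given either, and the antisense genes SLC2A1-AS1 (at most 0.917 CPM) and ENO1-AS1 (at most 0.445 CPM) were far below their partners.

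The wider pathway was read from lists of further genes, counted the same way. Of all features 31.9% were higher and 32.7% lower with rakicidin A, and 35.3% and 35.1% with BE-43547A1. A split near these shares, here and in the lists that follow, says little about a list. Of 13 measured further enzymes of glycolysis and gluconeogenesis 4 were higher, 5 lower and 4 not passed with rakicidin A, and 5, 5 and 3 with BE-43547A1. PGM3, which works in hexosamine synthesis rather than glycolysis, rose by 2.59 and 1.72 on the log2 scale, and MINPP1, a phosphatase of inositol phosphates and bisphosphoglycerate, fell by 0.71 and 1.13. Of 13 further glucose and lactate transport genes 3 were higher and 7 lower with rakicidin A, and 5 and 5 with BE-43547A1. SLC2A11, a fructose and glucose transporter, fell by 2.01 and 2.23, and SLC16A5, a monocarboxylate transporter family member, by 1.47 and 1.37.

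At the entry of pyruvate into mitochondria 6 of 16 measured genes were higher and 7 lower with rakicidin A, and 4 and 8 with BE-43547A1. PC, the pyruvate carboxylase, rose from 5.28 CPM to 18.5 and 18.2 (log2 1.81 and 1.78), and PDP1, the phosphatase that switches pyruvate dehydrogenase on, rose by 1.71 and 1.30. Of the kinases that switch it off, PDK3 and PDK2 fell by 1.37 and 1.08 with rakicidin A and by 1.21 and 0.47 with BE-43547A1. The list also holds the kinases PDK1 and PDK4, which are not described here. In the pentose phosphate pathway 1 of 8 was higher and 3 lower with rakicidin A, and 4 and 3 with BE-43547A1, none by a log2 value of 1 with a mean of at least 2 CPM. Among 16 genes of glycogen, fructose and polyol metabolism, a list that also holds GFPT1 and GFPT2, 8 were higher and 6 lower with each compound. These last 2, which open the hexosamine branch from fructose phosphate, rose by 2.20 and 1.34 with rakicidin A and 1.31 and 1.65 with BE-43547A1, while the glycogen-targeting phosphatase subunits split, PPP1R3B up by 1.47 and 0.80 and PPP1R3C down (-1.16 and -1.98).

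Of 12 regulators of glycolytic genes 5 were higher and 4 lower with rakicidin A, and 3 and 5 with BE-43547A1. HIF1A, the oxygen-regulated HIF subunit, rose from 81.0 CPM to 197 and 173 (1.28 and 1.10), and MAX, the partner of MYC, rose by 1.58 and 0.93. MXI1, a MYC antagonist, and EGLN3, an oxygen sensor, fell by 1.26 and 1.16 with rakicidin A and by 1.10 and 1.00 with BE-43547A1. Among 17 other hypoxia-induced genes 10 were higher and 6 lower with rakicidin A, and 7 and 7 with BE-43547A1 (medians 0.43 and 0.06). PPFIA4, CA12 and HILPDA fell (-1.66, -1.55 and -1.44 with rakicidin A, -1.69, -1.15 and -1.43 with BE-43547A1), and ADM rose (1.34 and 0.58), so genes of this list too went in both directions. In a list of 10 ATF4 targets 9 were higher and 1 lower with each compound (medians 3.65 and 2.30), led by ATF3 at 6.34 and 6.43. This list, like the others, was chosen with earlier results of these data known, so its count is not an independent result. Any part of these regulators in the changes of the glycolytic genes was not tested.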

How the data were processed

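RNA of 9 libraries, 3 per group, was sequenced as paired-end reads of 76 bases, per the labels' protocols. Per the submitters' processing notes the tools were TopHat2 and HTSeq and the builds GRCh37 and hg19. Their settings, roles and strand handling are not given in the sources at hand. The deposited table holds raw counts per annotated feature, with no normalization. Its 5 summary entries, which made up 39.0 to 45.4% of all counts with them included, were set aside. Counts on features were 27696394 to 30596594 in DMSO, 26203326 to 34870860 with rakicidin A and 39807220 to 45048999 with BE-43547A1.

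In R 4.3.3, edgeR 4.0.16 was run on all 9 libraries: filterByExpr, TMM factors (1.14 to 1.15 in DMSO, 0.890 to 0.898 with rakicidin A, 0.963 to 0.989 with BE-43547A1) and a quasi-likelihood fit with 1 mean per group and 6 residual degrees of freedom. P-values were adjusted by Benjamini-Hochberg over 22353 features. Each SE was derived from the log2 fold change and its F statistic, with 95% intervals from the t distribution. Exon lengths are unions of GENCODE v29 exons, of another build than the counts, so values per kb are approximate. Ratios add 0.5 to each count. The fit was tested on simulated data. Python 3.11.15 with matplotlib 3.10.9 drew the figures.

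Members and lists were chosen with earlier results of these data known. Values of each library are given for genes with a mean CPM of at least 2 that passed with a log2 fold change of at least 0.8 in size, and for others where libraries overlapped or decided a call. They are also given for SLC2A12, GAPDH and LDHB, which fall outside this rule, and for GPI in DMSO. From each further list up to 4 genes with a log2 fold change of at least 1 are named, by size. Alternatives were DESeq2 1.42.0 and limma-voom (limma 3.58.1) as tools, RLE factors or total counts alone as scaling, no filter, a fit to the 6 libraries of a comparison, a replicate block, thinning to 26203326 counts, and each library left out.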

Additional observations from a re-analysis of the deposited data

How the results depend on the processing

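Of the calls, 19 of 26 with rakicidin A, 21 of 24 with BE-43547A1 and 15 of 19 in the direct comparison kept their direction and their side of the threshold in all 17 alternatives. The number of members higher with rakicidin A than with BE-43547A1 was 2 in place of 1 with RLE factors, with the 6 libraries of the comparison and with the replicate block, and 1 to 2 with a library left out. Members higher with rakicidin A than in DMSO numbered 5 with total counts alone. No other count of members moved by over 1.5 times.

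With total counts alone the sign turned for rakicidin A against DMSO in ENO1 (-0.16), HK1 (-0.32), LDHA (-0.29), PFKFB2 (-0.088), PGAM1 (-0.35) and SLC16A1 (-0.30), for BE-43547A1 against DMSO in ENO2 (-0.12), HK1 (-0.040), LDHA (-0.11), PGAM1 (-0.20) and SLC16A1 (-0.20), and in the direct comparison in HK2 (-0.12), SLC16A1 (-0.10) and SLC2A6 (-0.071). This setting leaves out the scaling factors, which shifts all features downward. All other changes of sign were in values that did not pass. HK2 in the direct comparison was -0.0024 with the 6 libraries, -0.022 with no filter and -0.0069 thinned. PKM with BE-43547A1 was 0.0011 with the 6 libraries, 0.0025 with DESeq2 and with RLE factors and 0.0100 with no filter. SLC2A3 with rakicidin A was 0.019 with the 6 libraries, 0.018 with DESeq2, 0.012 with RLE factors and 0.10 thinned. PGAM1 with rakicidin A was -0.0040 with no filter and -0.016 thinned, and SLC16A1 in the direct comparison was -0.0066 with no filter.

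With 1 library left out the log2 fold change ran, for rakicidin A against DMSO, from -0.030 to 0.16 in HK1, -0.0044 to 0.17 in LDHA, -0.020 to 0.044 in PGAM1 and -0.20 to 0.12 in SLC2A3. For BE-43547A1 against DMSO it ran from -0.049 to 0.021 in PFKP and -0.027 to 0.040 in PKM. In the direct comparison it ran from -0.033 to 0.040 in HK2, -0.068 to 0.0096 in PGAM1, -0.096 to 0.013 in PGM2, -0.0015 to 0.041 in SLC16A1 and -0.0070 to 0.098 in SLC2A6.

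The replicate numbers of the labels did not pair the libraries: deviations of same-numbered libraries correlated at -0.06 to 0.12 (1 of 9 pairs above 0.1), and those of other pairs at -0.10 to 0.09. With the replicate block PFKFB4 passed in the direct comparison (0.15, adjusted p = 0.0479) and PFKP did not (-0.13, adjusted p = 0.0578), and no other call changed. Depth limits SLC2A10, which could not be tested, SLC2A3, at under 2 CPM, and the treated levels of SLC16A14, at 16 to 38 counts. Only 1 cell line, 1 time and 1 dose of each compound were sampled, under hypoxia alone.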
